A study of Mus musculus with 12 samples.

Results

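The effect of busulfan was measured in mice that all received AOS at level 10, by comparing 3 libraries of small intestine labelled B+A10 with 3 labelled AOS10. These 6 of the 12 libraries of the series were chosen by their treatment labels alone, and the comparison ran across all genes: 16942 were in the deposited table and 12329 passed the filter on low counts. Every library was RNA-seq of total RNA from intestine of ICR mice, an outbred stock. AOS10 mice had AOS at level 10 and no busulfan, and B+A10 mice had the same AOS level together with busulfan. The remaining groups, AOS0 and B+A0 (3 libraries each), had AOS level 0 without and with busulfan. B was read as busulfan, which the design text of the series names as the other treatment. What AOS stands for and the unit of its level, as well as the busulfan dose, route, timing, age and sex, were not stated in the labels. Whether the 3 libraries of each group represent different mice is not stated either, so a p-value here reflects only the spread between these samples, which may be technical.

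Busulfan is an alkylating drug that crosslinks DNA and is known for killing dividing blood progenitors and germ cells. The small intestinal epithelium renews itself continually from stem cells in the crypts, and lymphocytes lie between its cells. Misfolded proteins in the cytosol activate HSF1, which switches on heat shock chaperones, and misfolded proteins in the endoplasmic reticulum (ER) activate the sensors of the unfolded protein response, which switch on ER chaperones and the machinery that removes faulty proteins.

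The 6 libraries held 15077115 to 16760965 counts (13560232 to 16818245 over all 12). The 9 defining markers of small intestinal epithelium were measured in every library, the lowest being Chga, a secretory granule protein of enteroendocrine cells, at 31.8 to 48.0 counts scaled to library size (CPM). In a principal component analysis of the 6 libraries, B+A10 replicate 3 stood apart on the first component (31.3, against -12.8 to -2.23 for the other 5), which held 31.9% of the variance. The summed CPM of 24 genes of T cells and natural killer (NK) cells ranged from 251 to 345 in AOS10 and from 166 to 433 in B+A10, where replicate 2 was the highest. Markers of the exocrine pancreas (3 genes tested) summed to 22.6 to 53.9 CPM in AOS10 and 37.8 to 43.2 CPM in B+A10.

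With busulfan, 4 heat shock chaperone genes, 3 genes of ER protein folding and degradation and the transcription factor gene Egr1 were among those that rose, and 2 genes fell. A gene was called changed at an adjusted p below 0.05 in a model over all genes and all 12 libraries. Of 12329 genes, 20 (0.162%) were called: 18 higher (0.146%) and 2 lower (0.0162%) in B+A10. The log2 fold changes (log2FC) of the 18 ran from 0.44 to 4.29 with a median of 0.76, and 6 of the 20 changed more than 2-fold. In all 20 the levels did not overlap between the groups, a property that 14.9% of all genes shared (7.97% higher and 6.92% lower). At an unadjusted p below 0.05, 1261 genes (10.2%) differed, 6.07% higher and 4.16% lower. Of all genes, 50.9% had a log2 fold change above 0 and 49.1% below. These shares are the background for the list counts that follow. The lists were written with earlier results of these data known. Setting them beside these shares is therefore a description and not a test. The median log2 fold change of all genes was 0.0035.

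The calls rested on a spread estimated from all 12 libraries. With edgeR on the 6 compared libraries alone, 0 genes were called and 1044 had an unadjusted p below 0.05, whereas DESeq2 on all 12 called 138. Leaving out 1 library at a time gave 0 calls (without AOS10 replicate 1, AOS10 replicate 2 or B+A10 replicate 1), 1 call (without AOS10 replicate 3), 30 calls (without B+A10 replicate 3) or 61 calls (without B+A10 replicate 2). The 20 genes kept their direction in each of these fits. Because their groups do not overlap, this was nearly fixed in advance and adds no support to the calls.

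**Figure D1:**
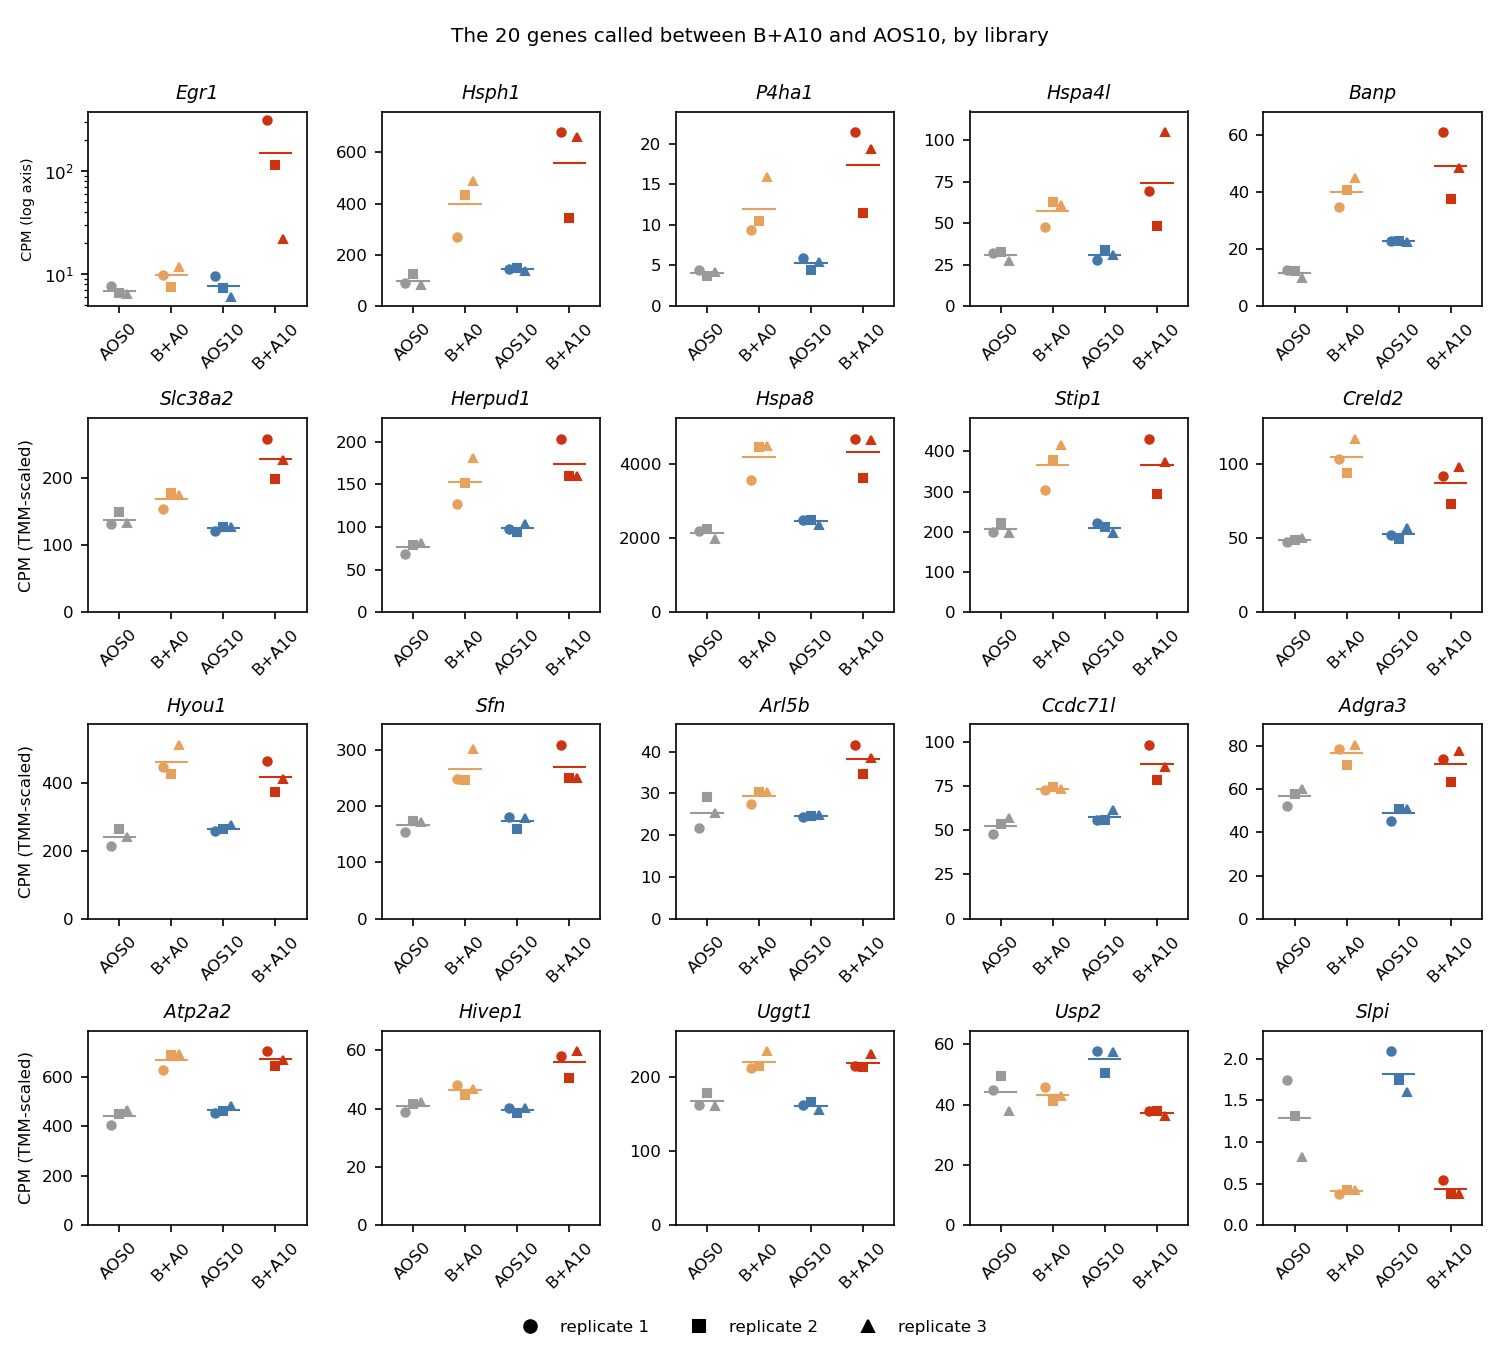
CPM of the 20 called genes in the 12 libraries, 1 panel per gene, with a symbol for each library and a line at each group's mean; the Egr1 panel has a log axis. In 18 panels the 3 B+A10 libraries lie above the 3 AOS10 libraries, and in the Usp2 and Slpi panels they lie below.

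**Figure D2:**
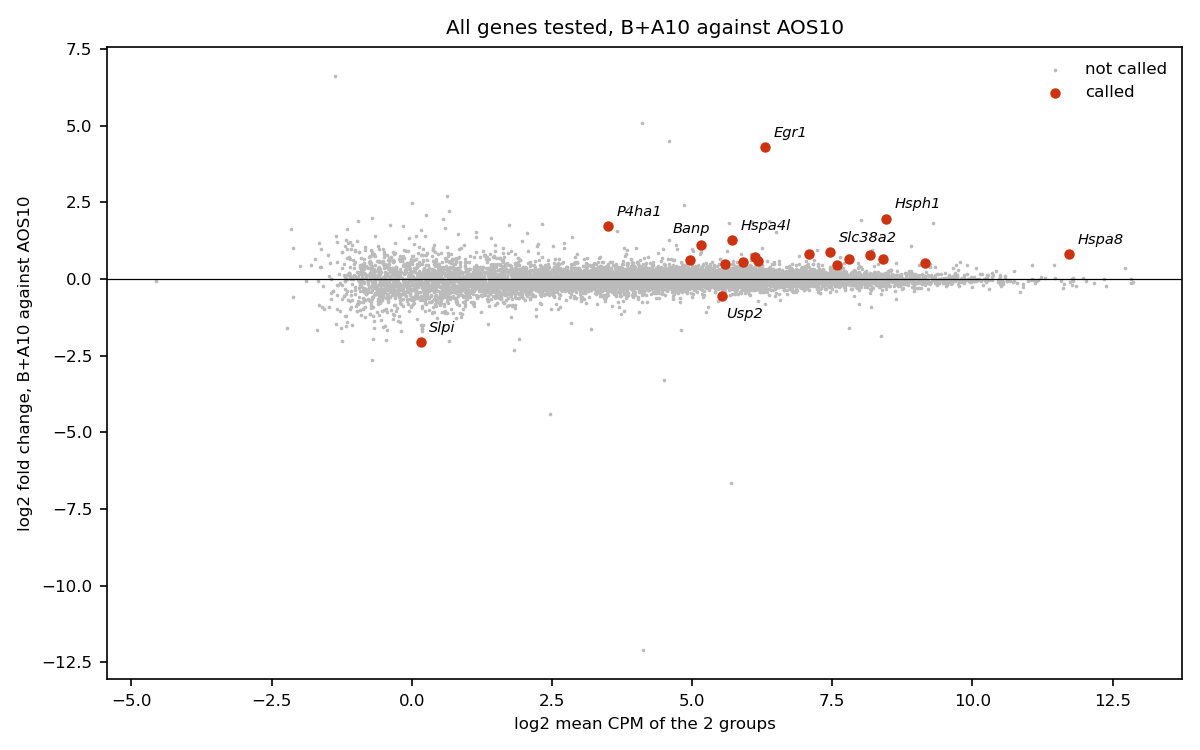
Log2 fold change between B+A10 and AOS10 against the log2 mean CPM of these groups for the 12329 genes tested, with the 20 called genes in red and 9 of them named. Of the called genes 18 lie above 0, and some uncalled genes have larger fold changes than most called ones.

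Heat shock chaperones had the highest median fold change of the lists in which any gene was called. Of 26 listed genes, 23 were tested, 4 were called higher and none lower, against 0.146% of all genes called higher. Of the 23, 22 had a log2 fold change above 0, against 50.9% of all genes, and their median was 0.80. An unadjusted p below 0.05 was reached by 20 of the 23, all higher. Relative to the AOS10 mean, the list's median log2 ratio was 0.92, 0.31 and 0.83 in B+A10 replicates 1, 2 and 3, against 0.01, 0.03 and -0.03 in AOS10. Every B+A10 library lay above every AOS10 library, with the smallest difference in replicate 2. The median log2 fold change was 0.94 without B+A10 replicate 2 and 0.66 without replicate 3.

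Hsph1 (chr5:149616843-149636498 in GRCm38), the HSP110 nucleotide exchange factor that assists HSP70, measured 145, 148 and 137 CPM in AOS10 and 679, 342 and 660.3 CPM in B+A10. All 3 B+A10 libraries lay above the AOS10 libraries, and replicate 2 was the lowest of them (log2FC 1.97 ± 0.26 (SE), adjusted p = 0.0274). Hspa8 (chr9:40801276-40805202), the constitutive cytosolic HSP70, measured 2503, 2509 and 2369.8 CPM in AOS10 and 4695, 3621 and 4672 CPM in B+A10. The groups were again separate, with replicate 2 lowest in B+A10 (log2FC 0.82 ± 0.12 (SE), adjusted p = 0.0274).

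Hspa4l (chr3:40744500-40796103), another HSP110 family member, measured 27.8, 33.8 and 30.5 CPM in AOS10 and 69.4, 48.3 and 105 CPM in B+A10. Here replicate 3 was the highest and replicate 2 the lowest of B+A10, and none reached down to AOS10 (log2FC 1.27 ± 0.22 (SE), adjusted p = 0.0451). Stip1 (chr19:7020696-7040026), the co-chaperone that links HSP70 to HSP90, measured 221, 212 and 198 CPM in AOS10 and 431, 293 and 374 CPM in B+A10. It too was separate between groups (log2FC 0.80 ± 0.14 (SE), adjusted p = 0.0451).

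Of the rest of the list, 16 reached an unadjusted p below 0.05 without being called. The stress-inducible HSP70 genes had the largest of these differences. Hspa1b measured 376, 252 and 201 CPM in AOS10 and 1458, 658 and 819.7 CPM in B+A10 (log2FC 1.82, adjusted p = 0.0719). Its neighbour Hspa1a measured 145, 93.0 and 84.9 CPM in AOS10 and 616, 269 and 338 CPM in B+A10 (log2FC 1.92, adjusted p = 0.0719). In both genes the 3 B+A10 libraries lay above AOS10. These genes are nearly identical, so reads could be split between them in counting and their separate values are uncertain. Hsp90aa1, the inducible cytosolic HSP90, had a log2FC of 1.06 (adjusted p = 0.116) and its constitutive partner Hsp90ab1 one of 0.47 (adjusted p = 0.24).

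The co-chaperone genes Chordc1 (1.02), Dnajb1 (0.96), Dnaja1 (0.94), Bag3 (0.91) and Ahsa1 (0.64) had log2 fold changes between those of the 2 HSP90 genes, and none passed. Bag3, which releases clients from HSP70, measured 107, 87.9 and 93.8 CPM in AOS10 and 223, 146 and 172 CPM in B+A10 (adjusted p = 0.0719), with every B+A10 library above AOS10. The mitochondrial HSP70 gene Hspa9 (0.19) and the HSP110 gene Hspa4 (0.19) had small differences. The transcription factor gene Hsf1, whose product drives this response, had a log2FC of 0.28 (adjusted p = 0.363).

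Levels compared per length of gene, as the deposited FPKM, ordered these chaperones differently from their fold changes. Hspa8 had the highest mean level of the 5 compared, 1241 FPKM in AOS10 and 2172 FPKM in B+A10. Hsp90ab1 followed at 979.7 and 1352 FPKM. Hsph1 stood at 43.6 FPKM in AOS10, below Stip1 (102 FPKM), and at 171 FPKM in B+A10, beside Stip1 at 177 FPKM. Hspa4l was the lowest of the 5, at 5.63 and 14.2 FPKM.

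**Figure D3:**
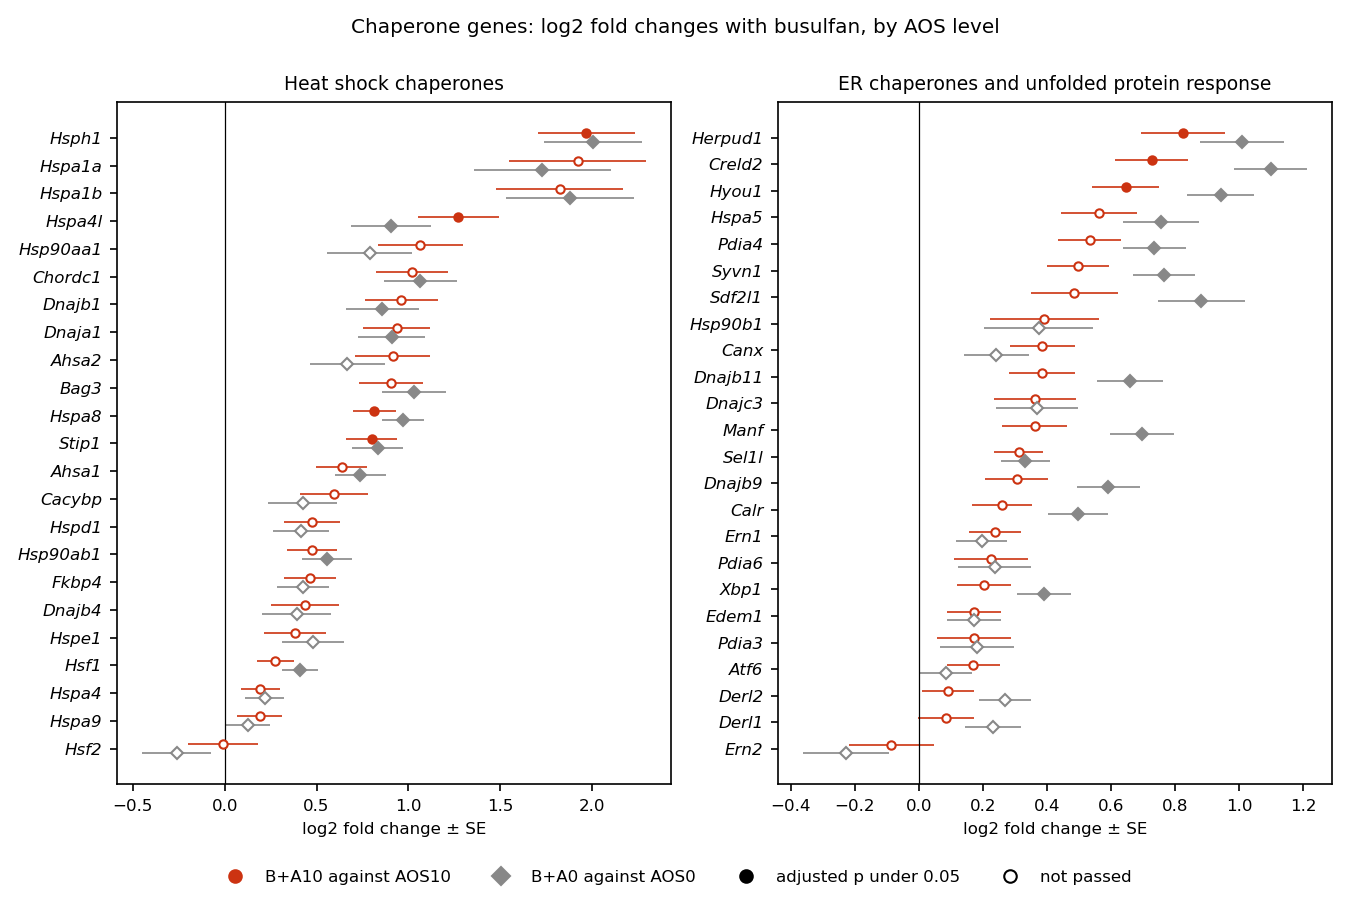
Log2 fold change with its SE for each tested heat shock chaperone gene (left) and ER chaperone or unfolded protein response gene (right), red circles for B+A10 against AOS10 and grey diamonds for B+A0 against AOS0; filled symbols passed an adjusted p below 0.05. Red symbols lie above 0 for 22 of 23 and 23 of 24 genes.

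Sequences at the starts of 3 called chaperone or ER stress genes are shown because they hold elements known from these responses. Each is written 5′ to 3′ on the gene's strand (GRCm38.p6), with the element in capitals. For Herpud1 and Creld2 it is the 250 bases before the RefSeq start of the gene, and for Hsph1 it is 30 bases around the element. For Hsph1 (minus strand, chr5:149636351-149636380) the capitals mark TTCNNGAA, inverted units of a heat shock element, 33 to 26 bases before one of 2 transcript starts that the RefSeq promoter table gives. Both starts lie inside the RefSeq span of Hsph1, and the element is 129 to 136 bases after the outermost start of the gene, not upstream of it. For Herpud1 (plus strand, chr8:94386179-94386428) they mark the ER stress response element II (ATTGG, 1 base, then CCACG), 52 to 42 bases before the start. For Creld2 (plus strand, chr15:88819396-88819645) they mark the ER stress response element (CCAAT, 9 bases, then CCACG) on the opposite strand, 126 to 108 bases before the start.
Hsph1: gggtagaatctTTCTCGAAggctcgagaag
Herpud1: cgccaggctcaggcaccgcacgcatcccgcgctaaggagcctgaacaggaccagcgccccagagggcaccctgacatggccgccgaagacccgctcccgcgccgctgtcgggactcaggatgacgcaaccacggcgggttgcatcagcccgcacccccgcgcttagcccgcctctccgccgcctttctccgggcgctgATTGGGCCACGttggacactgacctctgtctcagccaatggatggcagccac
Creld2: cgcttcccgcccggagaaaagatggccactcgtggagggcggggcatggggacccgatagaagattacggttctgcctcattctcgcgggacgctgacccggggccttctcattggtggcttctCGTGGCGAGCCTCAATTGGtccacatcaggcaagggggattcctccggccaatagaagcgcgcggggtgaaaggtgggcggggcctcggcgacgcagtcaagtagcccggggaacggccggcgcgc

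Of the 20 called genes, 15 had a window of the 250 bases before a start in the RefSeq promoter table (16 windows). Of the 16, 8 windows of 7 genes reach into the RefSeq span of their own gene, because the start used is not its outermost one. Searched on both strands, TTCNNGAA was in 7.17% of all 32851 windows, the ER stress response element II in 0.0304% and the ER stress response element in 0.113%. Among the 15 genes these were found in Hsph1 (in both of its overlapping windows), Herpud1 and Creld2 respectively. These 3 patterns were added after the windows had been read. The other order of heat shock units, GAANNTTC, was in 6.69% of all windows and, of the called genes, in Adgra3. The E-box CACGTG was in 6.02% of all windows and in those of Arl5b, Hsph1 and Slpi.

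CCAAT, which overlaps both ER stress response elements, was in 33.8% of all windows and in those of 6 called genes. The palindrome CTCGCGAG that the BANP protein binds (0.761% of all windows), the unfolded protein response core TGACGTGG (0.563%), the AP-1 site TGAGTCA (4.46%) and the clock output sites TTATGTAA (0.819%) and TTACGTAA (0.113%) were in none of the 16 windows. A match describes the letters in the window and does not show that a factor binds there.

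Genes of the ER chaperones and the unfolded protein response were higher by smaller amounts. Of 24 tested, 3 were called higher and none lower, against 0.146% of all genes called higher. Of the 24, 23 lay above 0, against 50.9% of all genes. An unadjusted p below 0.05 was reached by 17, all higher, against 6.07% of all genes. The list's median log2 fold change was 0.34. In B+A10 replicates 1, 2 and 3 the list's median log2 ratio to the AOS10 mean was 0.29, 0.20 and 0.47, with replicate 2 again lowest. The median was 0.42 without B+A10 replicate 2 and 0.26 without replicate 3.

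Herpud1 (chr8:94386429-94395371), a membrane protein of the ER degradation machinery, measured 97.9, 93.9 and 103 CPM in AOS10 and 203, 159 and 160.0 CPM in B+A10 (log2FC 0.83 ± 0.13 (SE), adjusted p = 0.0332). Creld2 (chr15:88819646-88826681), a secreted ER stress protein, measured 52.0, 49.3 and 56.9 CPM in AOS10 and 91.4, 72.8 and 97.5 CPM in B+A10 (log2FC 0.73 ± 0.11 (SE), adjusted p = 0.0332). Hyou1 (chr9:44379490-44392369), the large HSP70-like chaperone of the ER, measured 258, 263 and 276 CPM in AOS10 and 463, 373 and 411 CPM in B+A10 (log2FC 0.65 ± 0.10 (SE), adjusted p = 0.0332). In each of the 3 the B+A10 libraries were all above AOS10, and replicate 1 or 3 was the highest.

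A further pair of called genes acts in the ER and was named after their values were seen. Uggt1 (chr1:36140028-36244320), the glucosyltransferase that marks misfolded glycoproteins, measured 163, 166 and 156 CPM in AOS10 and 215, 213 and 231 CPM in B+A10, the smallest called rise (log2FC 0.44 ± 0.08 (SE), adjusted p = 0.0451). Atp2a2 (chr5:122453513-122502225), the SERCA2 pump that fills the ER with calcium, measured 452, 462 and 481 CPM in AOS10 and 704, 643 and 667 CPM in B+A10 (log2FC 0.53 ± 0.08 (SE), adjusted p = 0.0324). Neither overlapped between the groups, and both had a narrow spread within each.

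Among ER genes that did not pass, Hspa5 (BiP), the main ER chaperone, measured 643, 705 and 765 CPM in AOS10 and 1006, 863 and 1256 CPM in B+A10 (log2FC 0.56, adjusted p = 0.0946). Its 3 B+A10 libraries lay above AOS10. The disulfide isomerase gene Pdia4 (0.53), the ubiquitin ligase gene Syvn1 (0.50), Sdf2l1 (0.49), the lectin chaperone gene Canx (0.39) and Manf (0.36) had log2 fold changes in the same direction. The listed sensor genes were nearer to 0, Ern1 at 0.24 (unadjusted p = 0.0111, adjusted p = 0.313), Atf6 at 0.17 and the epithelial sensor Ern2 at -0.09. Xbp1, the transcription factor whose mRNA the IRE1 sensors splice, was at 0.20 (adjusted p = 0.442).

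No gene on the list for the integrated stress response, which follows from phosphorylation of eIF2α, was called. Slc38a2, called higher below, was not on this list. Of 23 tested, 18 lay above 0 with a median log2 fold change of 0.10, and 3 had an unadjusted p below 0.05. Chac1, a glutathione-degrading enzyme, measured 5.59, 3.05 and 3.47 CPM in AOS10 and 10.98, 9.32 and 7.18 CPM in B+A10 (log2FC 1.18, adjusted p = 0.168). Slc7a5, the LAT1 amino acid transporter, measured 20.3, 16.5 and 14.0 CPM in AOS10 and 34.9, 23.7 and 22.8 CPM in B+A10 (log2FC 0.68, adjusted p = 0.242). In both genes the groups were separate. Ddit3, the transcription factor CHOP, went the other way, at 17.1, 16.5 and 17.0 CPM in AOS10 and 14.9, 13.8 and 12.9 CPM in B+A10 (log2FC -0.28, adjusted p = 0.35).

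Of the other called genes, Slc38a2 (chr15:96687392-96699728), the SNAT2 transporter of small neutral amino acids, had the smallest p. It measured 121, 127 and 126 CPM in AOS10 and 258, 198 and 227 CPM in B+A10 (log2FC 0.87 ± 0.10 (SE), adjusted p = 0.0164), with a tight AOS10 group below B+A10. P4ha1 (chr10:59323197-59373304), a catalytic subunit of collagen prolyl 4-hydroxylase, measured 5.90, 4.41 and 5.41 CPM in AOS10 and 21.4, 11.5 and 19.3 CPM in B+A10 (log2FC 1.73 ± 0.25 (SE), adjusted p = 0.0274). Banp (chr8:121947972-122029260), a nuclear DNA-binding protein, measured 22.9, 22.7 and 22.6 CPM in AOS10 and 60.9, 37.6 and 48.4 CPM in B+A10 (log2FC 1.11 ± 0.16 (SE), adjusted p = 0.0274). All 3 were separate between the groups, with B+A10 replicate 1 highest and replicate 2 lowest.

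Apart from Egr1, the remaining rises were between 0.50 and 0.64 in log2 fold change. Sfn, the 14-3-3 sigma protein of epithelia, measured 180.3, 159 and 179 CPM in AOS10 and 309, 251 and 249.9 CPM in B+A10 (adjusted p = 0.0451). Arl5b, a small GTPase of the Golgi, measured 24.3, 24.6 and 24.7 CPM in AOS10 and 41.5, 34.5 and 38.3 CPM in B+A10 (adjusted p = 0.0451). Neither overlapped between the groups. Ccdc71l had a log2FC of 0.60, the adhesion receptor gene Adgra3 one of 0.55 and the zinc finger gene Hivep1, named after its values were seen, one of 0.50.

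Over the 18 rises, B+A10 replicate 2 was the lowest of its group in 16, replicate 1 was the highest in 13 and replicate 3 in 5. Replicate 2 was also the B+A10 library with the highest sum of T and NK cell genes, and the part of that difference in the chaperone values was not tested.

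Egr1, an immediate early transcription factor that is induced quickly by many stimuli, had the largest called fold change and a wide spread. It measured 9.52, 7.32 and 5.94 CPM in AOS10 and 312, 115 and 22.0 CPM in B+A10 (log2FC 4.29 ± 0.69 (SE), adjusted p = 0.0332). The lowest B+A10 library was above the highest AOS10 library, but replicates 1 and 3 of B+A10 were farther apart than any AOS10 library was from replicate 3.

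Of 20 immediate early genes tested, only Egr1 was called, 16 lay above 0 (median log2FC 0.40), and 8 had an unadjusted p below 0.05, all higher. The median was 0.097 without B+A10 replicate 1 and 0.17 with limma on log2(FPKM + 1). Fos, a subunit of AP-1, measured 68.2, 42.1 and 28.7 CPM in AOS10 and 228, 130.0 and 47.3 CPM in B+A10, with B+A10 replicate 3 inside the range of AOS10 (log2FC 1.54, adjusted p = 0.225). Fosl2, a related subunit, measured 115, 106 and 115 CPM in AOS10 and 185, 159 and 125 CPM in B+A10 (log2FC 0.48, adjusted p = 0.216). The Fosl2 groups were separate. Klf6 had a log2FC of 0.55 and Fosb one of 1.67, while Jun (0.07) was close to 0. The summed CPM of the list was 1884, 1359 and 901 in B+A10 replicates 1, 2 and 3 and 1061, 892 and 847 in AOS10, so replicate 3 lay within the AOS10 range.

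The xenobiotic-metabolising enzyme gene Cyp1a1, a target of the aryl hydrocarbon receptor, had the same order of B+A10 libraries as Egr1, an order not counted over all genes. It measured 2.46, 0.583 and 3.14 CPM in AOS10 and 109, 24.0 and 6.07 CPM in B+A10 (log2FC 4.49, adjusted p = 0.0902), separate between groups but not called. Ahr, the receptor gene itself, measured 13.9, 13.5 and 13.7 CPM in AOS10 and 19.2, 16.6 and 21.5 CPM in B+A10 (log2FC 0.48, adjusted p = 0.168), also separate. The 24 tested genes of the cytochrome P450 list had a median log2FC of -0.11 with none called.

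Of the called falls, Slpi (chr2:164354070-164356507), a secreted inhibitor of leukocyte proteases, was at the edge of detection. It measured 2.09, 1.75 and 1.60 CPM in AOS10 and 0.546, 0.375 and 0.368 CPM in B+A10, which rests on 24 to 34 counts per AOS10 library and 6 to 9 per B+A10 library (log2FC -2.06 ± 0.34 (SE), adjusted p = 0.0332). Usp2 (chr9:44067021-44095627), a deubiquitinating enzyme under control of the circadian clock, measured 57.7, 50.7 and 57.4 CPM in AOS10 and 37.8, 37.8 and 36.1 CPM in B+A10 (log2FC -0.57 ± 0.10 (SE), adjusted p = 0.0451). Both were separate between groups, and the 3 B+A10 libraries of Usp2 were nearly equal.

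Other lower genes did not pass. Srsf5, a splicing factor, measured 120.0, 109 and 123 CPM in AOS10 and 58.1, 85.2 and 73.9 CPM in B+A10 (log2FC -0.70, adjusted p = 0.0637). Dcaf8, a ubiquitin ligase adaptor, measured 96.6, 99.7 and 94.1 CPM in AOS10 and 68.8, 75.6 and 58.9 CPM in B+A10 (log2FC -0.51, adjusted p = 0.0719). Both had separate groups. The mitochondrial enzyme gene Ech1 had a log2FC of -0.38, Vstm5 one of -0.44 and Tcta one of -0.44. Tuba1a, an alpha tubulin, measured 85.2, 29.7 and 8.01 CPM in AOS10 and 3.64, 4.50 and 4.36 CPM in B+A10 (log2FC -3.30, adjusted p = 0.114). The sialyltransferase gene St3gal4 measured 7.86, 8.55 and 291 CPM in AOS10 and 0.667, 1.69 and 0.675 CPM in B+A10 (log2FC -6.66, adjusted p = 0.0885). The St3gal4 difference came mostly from AOS10 replicate 3, and that of Tuba1a from AOS10 replicates 1 and 2.

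Of 19 circadian clock genes tested, Usp2 alone was called, and 9 had an unadjusted p below 0.05, 4 higher and 5 lower. Of all genes, 6.07% were higher and 4.16% lower at that threshold. Per1, a repressor of the clock, measured 20.9, 23.7 and 20.3 CPM in AOS10 and 55.9, 41.9 and 29.5 CPM in B+A10 (log2FC 0.97, adjusted p = 0.168), and Per2 had a log2FC of 0.67. Hlf, a PAR bZIP factor of clock output, measured 0.983, 1.04 and 1.07 CPM in AOS10 and 0.667, 0.375 and 0.491 CPM in B+A10 (adjusted p = 0.302), with the groups separate. Cry2 (-0.58) and Tef (-0.62) also had log2 fold changes below 0. Nr1d1, the repressor REV-ERBα, measured 4.36, 3.89 and 3.74 CPM in AOS10 and 4.31, 22.2 and 4.78 CPM in B+A10, so that its value of 1.38 came from B+A10 replicate 2. The time of day at collection was not stated in the labels.

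In the pathways that respond to DNA crosslinks no gene was called. Of 24 p53 target genes tested, 15 lay above 0 with a median log2 fold change of 0.04. An unadjusted p below 0.05 was reached by 4, 3 higher and 1 lower. Gdf15 had the largest log2 fold change of the list, 1.16 (adjusted p = 0.47). Cdkn1a, the cell cycle inhibitor p21, measured 164, 164 and 155 CPM in AOS10 and 172, 199 and 112 CPM in B+A10 (log2FC 0.00 ± 0.20), and the groups overlapped. Mdm2, the p53 ubiquitin ligase, measured 35.9, 37.3 and 38.1 CPM in AOS10 and 42.3, 39.8 and 44.7 CPM in B+A10 (log2FC 0.19, adjusted p = 0.442). Tnfrsf10b, a death receptor, had a log2FC of 0.44 and Sesn1, a stress-induced sestrin, one of -0.34 (adjusted p = 0.302 and 0.285). Sfn, called higher above, is also known as a p53 target and was not on this list.

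The 29 genes of crosslink repair and the Fanconi pathway had a median log2FC of 0.08, and the 34 of cell cycle and DNA replication one of 0.05, with 1 gene in each list at an unadjusted p below 0.05. Fanca, a core subunit of the Fanconi complex, measured 20.6, 20.7 and 18.8 CPM in AOS10 and 27.1, 22.8 and 23.8 CPM in B+A10 (log2FC 0.29, adjusted p = 0.365). For Mki67, the proliferation marker, the log2 fold change was 0.11 ± 0.20. The 19 crypt stem cell genes had a median of 0.06. Lgr5, the stem cell receptor, measured 14.0, 13.9 and 9.62 CPM in AOS10 and 15.6, 11.3 and 15.6 CPM in B+A10 (log2FC 0.18 ± 0.23), and its groups overlapped. The 25 tested genes of the BCL2 family and caspases had a median of -0.02, with the survival gene Mcl1 at 0.24 (adjusted p = 0.3).

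Among the epithelial lineages, tuft cell genes all lay on one side. These rare chemosensory cells were followed by 17 tested genes of 24 listed, all of which lay below 0 in B+A10, against 49.1% of all genes. Their median log2 fold change was -0.87, 10 had an unadjusted p below 0.05 and none was called. Avil, an actin-binding tuft cell marker, measured 5.53, 4.28 and 8.68 CPM in AOS10 and 3.03, 3.13 and 3.25 CPM in B+A10 (log2FC -0.97, adjusted p = 0.215). Trpm5, the cation channel of taste signalling, measured 8.11, 4.92 and 11.3 CPM in AOS10 and 5.34, 4.31 and 3.31 CPM in B+A10 (log2FC -0.91, adjusted p = 0.252). The list's summed CPM was 30.3, 34.3 and 30.6 in B+A10 and 50.7, 33.4 and 76.7 in AOS10. AOS10 replicate 2 lay inside the B+A10 range and AOS10 replicate 3 was the highest. Without AOS10 replicate 3 the median was -0.50, and with limma on log2(FPKM + 1) it was -0.32. In whole tissue, fewer cells of a type and less RNA per cell cannot be told apart.

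Goblet cell genes were lower by less: 20 of 24 lay below 0, against 49.1% of all genes. Their median was -0.24, or -0.14 without AOS10 replicate 3. An unadjusted p below 0.05 was reached by 9, all lower, against 4.16% of all genes. Rep15, a Rab15 effector, measured 18.9, 18.6 and 22.9 CPM in AOS10 and 13.4, 12.8 and 11.9 CPM in B+A10 (log2FC -0.66, adjusted p = 0.0719). Muc2, the main intestinal mucin, measured 1957, 1926 and 2345 CPM in AOS10 and 1876, 1783 and 1560.3 CPM in B+A10 (log2FC -0.25, adjusted p = 0.571). Both were lower in every B+A10 library than in any AOS10 library. Enteroendocrine genes had a median of -0.25 over 25 genes (-0.14 with limma on log2(FPKM + 1)), with 4 at an unadjusted p below 0.05. Among these were the hormone genes Sst (-0.58), Gip (-0.52) and Nts (-0.76), with adjusted p of 0.294, 0.348 and 0.467.

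Of 17 tested Paneth cell genes, 14 lay above 0, with a median of 0.30 and none at an unadjusted p below 0.05. The list's median log2 ratio to the AOS10 mean was 0.49, 0.10 and -0.67 in AOS10 and 0.43, 0.29 and 0.47 in B+A10, so AOS10 replicate 1 lay above all 3 B+A10 libraries. The median was 0.12 without AOS10 replicate 3 and 0.61 without AOS10 replicate 1. Lyz1, the Paneth cell lysozyme, measured 2755, 1749 and 897 CPM in AOS10 and 2258, 2347 and 2783 CPM in B+A10 (log2FC 0.45, adjusted p = 0.662). Only B+A10 replicate 3 lay outside the AOS10 range, which AOS10 replicate 3 extended downwards. Several genes of this list are defensins with near-identical copies, whose separate values are uncertain.

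Absorptive functions differed by less than these. The median log2 fold change was -0.10 over 26 brush border genes, -0.10 over 25 lipid absorption genes, -0.15 over 17 transporters and -0.05 over 32 genes of oxidative phosphorylation, with none called and none at an unadjusted p below 0.05. Alpi, the intestinal alkaline phosphatase of mature enterocytes, measured 637, 581 and 650.1 CPM in AOS10 and 669.7, 912 and 524 CPM in B+A10, with overlapping groups. Cell junction genes had a median of 0.05 over 28 genes.

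Genes of drug and lipid metabolism were also not called. The median was -0.11 over 35 glutathione transferase and antioxidant genes, -0.08 over 23 conjugation enzymes and -0.03 over 16 ABC transporters. Glutathione transferases conjugate busulfan, but which of them act on it in this tissue was not tested. The log2 fold changes of their list ran from -0.54 to 0.76, with 8 genes above 0 and 27 below. At its lower end, Gsta4 measured 45.8, 59.0 and 68.4 CPM in AOS10 and 36.3, 42.7 and 39.9 CPM in B+A10 (log2FC -0.54, adjusted p = 0.265), lower in all 3 B+A10 libraries. Txnrd1, a thioredoxin reductase under control of NRF2, measured 322, 325 and 354 CPM in AOS10 and 408, 393 and 426 CPM in B+A10 (log2FC 0.29, adjusted p = 0.199), higher in all 3. Cholesterol and fatty acid synthesis genes had a median of 0.02 over 33 genes, within which Scd1, a fatty acid desaturase, measured 0.921, 1.43 and 1.27 CPM in AOS10 and 2.73, 1.38 and 3.25 CPM in B+A10 (log2FC 1.02, adjusted p = 0.355). Of the genes of fatty acid oxidation, 20 of 26 lay below 0 (median -0.12).

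T and NK cell genes (24 of 31 listed were tested) had a median log2FC of -0.16, with 1 at an unadjusted p below 0.05 and none called. It lay between -0.68 (without B+A10 replicate 2) and 0.10 (without B+A10 replicate 1) when 1 library was left out. Their median log2 ratio to the AOS10 mean was -0.70, 0.50 and -0.45 in B+A10 replicates 1, 2 and 3. Gzma, a granzyme of cytotoxic lymphocytes, measured 63.7, 52.7 and 61.5 CPM in AOS10 and 31.0, 96.8 and 50.9 CPM in B+A10 (log2FC 0.01 ± 0.45, or -0.52 without replicate 2). Ccl5, a chemokine of the same cells, measured 60.7, 39.3 and 45.5 CPM in AOS10 and 26.0, 56.6 and 25.6 CPM in B+A10 (log2FC -0.43, adjusted p = 0.689). In both genes replicate 2 was the highest B+A10 library and the other 2 were below AOS10. Cd4, the helper T cell co-receptor and the lowest log2 fold change of the list, measured 2.58, 0.778 and 1.94 CPM in AOS10 and 0.606, 1.06 and 0.859 CPM in B+A10 (log2FC -1.07, adjusted p = 0.468). Of the 24 genes, 18 lay below 0 and 6 above, among the latter Cd3e (0.31, adjusted p = 0.843) and Cd8b1 (0.34, adjusted p = 0.823).

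Mast cell genes were lower in B+A10 without passing the test. Of 8 tested genes of mast cells and eosinophils (20 were listed), 7 lay below 0 (median -1.57) and 4 had an unadjusted p below 0.05. The median was -0.55 with limma on log2(FPKM + 1), a scale that understates differences of low genes, and -2.18 without B+A10 replicate 2. Mcpt1, the protease of mucosal mast cells, measured 38.5, 33.5 and 55.9 CPM in AOS10 and 8.37, 24.8 and 7.30 CPM in B+A10 (log2FC -1.66, adjusted p = 0.215). Its groups were separate, with replicate 2 again the highest of B+A10. The mast cell protease genes Mcpt2 and Mcpt4 had log2 fold changes of -1.64 and -1.51 (adjusted p = 0.275 and 0.355).

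Macrophage and monocyte genes had a median log2FC of -0.09 over 11 tested genes, with Cd68, a lysosomal protein of macrophages, at 0.85 and Mpeg1, the pore protein perforin-2, at -0.85. The 4 tested haemoglobin and red cell genes all lay below 0 (median -0.76), none with an unadjusted p below 0.05. The 11 tested fibroblast and matrix genes had a median of -0.16, from -0.43 to -0.00014 when 1 library was left out (lowest without B+A10 replicate 2, highest without AOS10 replicate 1), with the collagen gene Col3a1 at 2.64, 1.17 and 2.54 CPM in AOS10 and 1.39, 0.938 and 0.613 CPM in B+A10 (log2FC -1.10, adjusted p = 0.396).

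Most interferon-stimulated genes had log2 fold changes below 0, but none reached the threshold and the libraries of the groups overlapped. Of 37 tested, 32 lay below 0, against 49.1% of all genes, and none had an unadjusted p below 0.05. The list's median was -0.20, or -0.13 without AOS10 replicate 1 or B+A10 replicate 1. Its median log2 ratio to the AOS10 mean was 0.17, 0.04 and -0.22 in AOS10 replicates 1, 2 and 3. In B+A10 it was -0.33, -0.18 and -0.08, so AOS10 replicate 3 lay below B+A10 replicates 2 and 3. Between B+A0 and AOS0, 33 of the 37 lay above 0 (median 0.32). Irf7, the factor that amplifies interferon production, measured 568, 457 and 317 CPM in AOS10 and 413, 334 and 275 CPM in B+A10 (log2FC -0.39, adjusted p = 0.622), and the groups overlapped. Of the 15 genes of MHC class I presentation, 12 lay below 0 (median -0.08). Tap1, the peptide transporter of this pathway, measured 323, 248 and 274 CPM in AOS10 and 215, 183 and 176 CPM in B+A10 (log2FC -0.56, adjusted p = 0.206). Of the 24 tested genes of inducible epithelial defence, 16 lay below 0 and 6 had an unadjusted p below 0.05, 5 of them lower. The chemokine gene Ccl20 measured 0.983, 1.23 and 0.868 CPM in AOS10 and 0.485, 0.563 and 0.675 CPM in B+A10 (log2FC -0.83, adjusted p = 0.376).

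**Figure D4:**
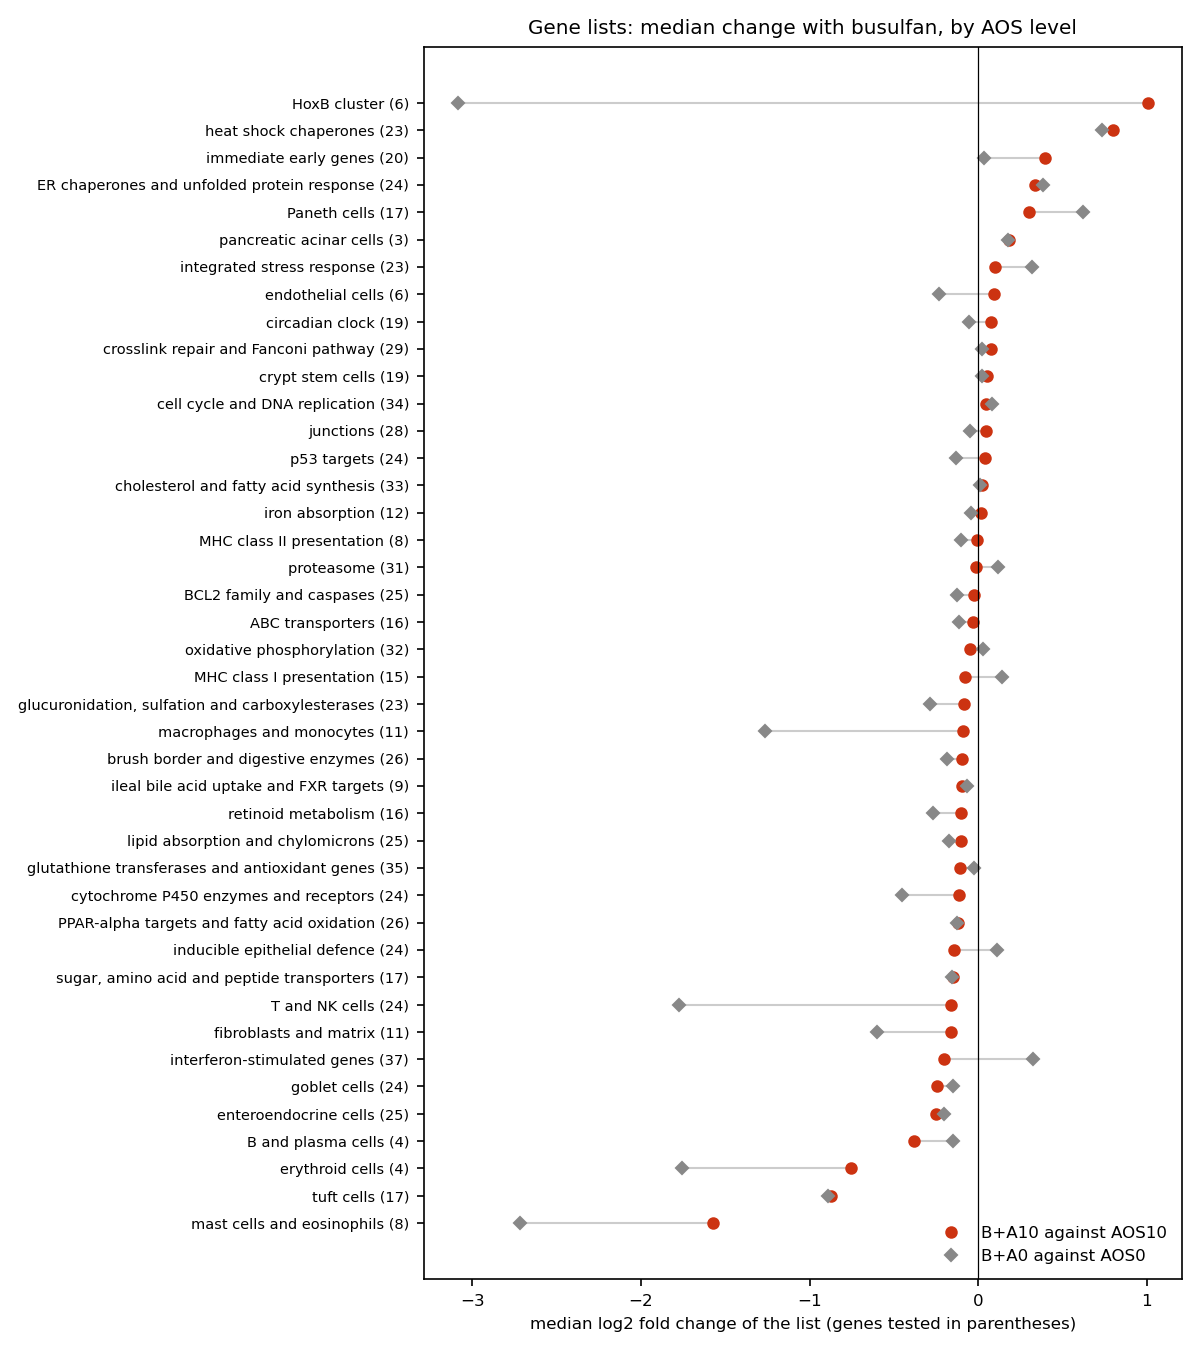
Median log2 fold change of each gene list with at least 3 tested genes, red circles for B+A10 against AOS10 and grey diamonds for B+A0 against AOS0, with the number of tested genes in parentheses. The heat shock, ER chaperone and tuft cell lists have close medians in both, while the T and NK cell, mast cell, macrophage and HoxB lists lie farther from 0 without AOS.

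The same drug contrast without AOS, B+A0 against AOS0, came from 6 other libraries and called 449 genes (3.64%). Both contrasts used the spread estimated from all 12 libraries, so their calls are not independent of each other. Of the 20 genes called at AOS level 10, 15 were also called there, all in the same direction; they were 75.0% of the 20 and 3.34% of the 449. The exceptions were Slc38a2, Hivep1, Egr1, Usp2 and Arl5b, with log2 fold changes at AOS level 0 of 0.29, 0.18, 0.50, -0.03 and 0.22. In edgeR's test of the difference between the busulfan effects (the interaction) 0 genes were called (0% of those tested), with 844 at an unadjusted p below 0.05 and a smallest adjusted p of 0.499. DESeq2 called 17 genes in it. For Egr1 the difference was 3.79 on the log2 scale (adjusted p = 0.499), and for Usp2 it was -0.54 (adjusted p = 0.499).

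The chaperone lists had close medians in both comparisons, and more of their genes were called without AOS. Without AOS 13 of 23 heat shock genes and 13 of 24 ER genes were called higher, against 4 and 3 with AOS, where fewer genes were called in all (20 against 449). Of all 12329 genes tested, 210 were called higher without AOS and 18 with AOS. The heat shock list had a median log2FC of 0.80 with AOS and 0.74 without, and the ER list 0.34 and 0.38. In the ER list the log2FC with AOS was below that without in 18 of 24 genes (median difference -0.18), 2 had an unadjusted interaction p below 0.05 and none passed. Over all 12329 genes, the median log2FC was 0.0035 with AOS and -0.0072 without, and 844 had such an interaction p. Creld2 had a log2FC of 0.73 with AOS and 1.10 without, and Hyou1 0.65 and 0.94. Hsph1 had a log2FC of 1.97 ± 0.26 with AOS and 2.01 ± 0.27 without. For Banp the log2 fold changes were 1.11 and 1.79. In mean CPM its level was 11.6 in AOS0 and 40.1 in B+A0, against 22.7 in AOS10 and 49.0 in B+A10. Tuft cell genes had medians of -0.87 with AOS and -0.89 without.

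Of the 210 genes called higher without AOS, 197 (93.8%) were also above 0 with AOS, where their median log2 fold change was 0.23 against 0.48 without. Of the 239 called lower, 202 (84.5%) were also below 0 with AOS, with a median of -0.21 against -1.13. The 449 were chosen on the values without AOS, so the difference between these medians is a description and not a test.

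T and NK cell genes showed a wide gap between the comparisons. Without AOS, 15 of 24 were called lower (median -1.77), and with AOS none was. Of all 12329 genes tested, 239 were called lower without AOS and 2 with AOS. The median difference between the effects was 1.59 on the log2 scale, 20 of 24 had an unadjusted interaction p below 0.05, and none passed. Such an interaction p was reached by 844 of all 12329 genes. The summed CPM of the list was 449, 266 and 422 in AOS0 and 158, 96.6 and 67.2 in B+A0. It was 345, 251 and 272 in AOS10 and 166, 433 and 206 in B+A10. Every B+A0 library was below every AOS10 and AOS0 library, whereas B+A10 replicate 2 was above all of AOS10 and replicates 1 and 3 were below. Without B+A10 replicate 2 the list's median log2 fold change with AOS was -0.68. Mast cell genes had medians of -1.57 with AOS and -2.72 without.

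**Figure D5:**
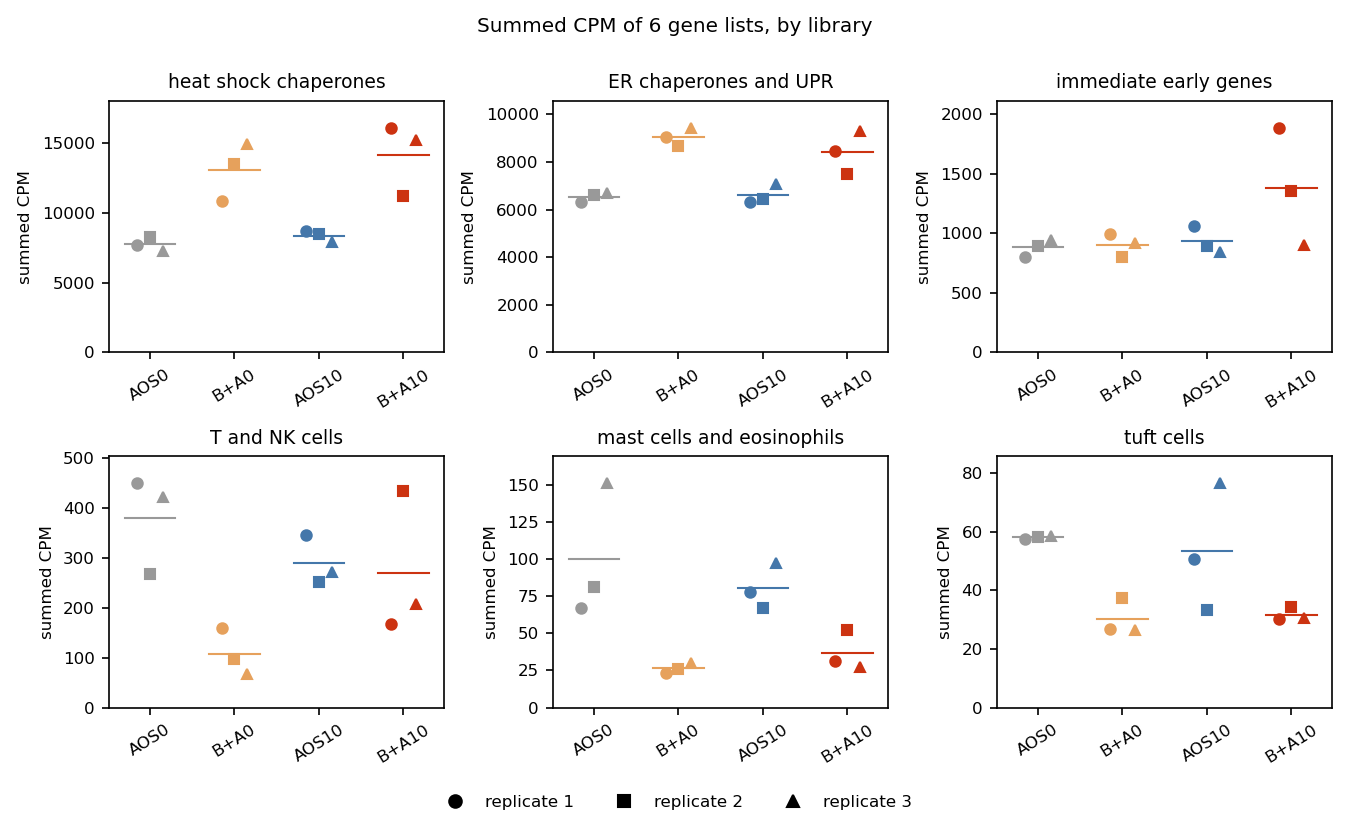
Summed CPM of 6 gene lists in each of the 12 libraries, with a symbol for each library and a line at each group's mean. B+A10 replicate 2 is the lowest B+A10 library for both chaperone lists and the highest for the T and NK cell list.

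Genes of the HoxB cluster, which encode position along the body axis, were low in these groups. Hoxb9 measured 0.614, 0.778 and 0.401 CPM in AOS10 and 0.364, 5.31 and 1.41 CPM in B+A10 (log2FC 1.96, adjusted p = 0.426), and its mean was 11.1 CPM in AOS0 and 1.13 CPM in B+A0. Of 6 tested, none was called with AOS (median 1.01) and 4 were called lower without it (median -3.08), against 239 of all 12329 genes. The list's median log2 ratio to the AOS10 mean was -0.32, 1.36 and -0.14 in B+A10 replicates 1, 2 and 3, so the positive median with AOS came from replicate 2.

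The genes with the smallest interaction p, among those with separate AOS10 and B+A10 groups, were Ugcg, Pard3b, Dyrk2, Klf3 and Fzd5, and none of these differences passed. This choice favours genes whose log2 fold changes with and without AOS differ in sign, so the signs below are not a separate result. Ugcg, the ceramide glucosyltransferase, had a log2FC of 0.37 with AOS and -0.38 without (adjusted p = 0.499 in the interaction test). Klf3, a transcriptional repressor, measured 128, 134 and 129.8 CPM in AOS10 and 188, 172 and 162 CPM in B+A10, and had log2 fold changes of 0.42 and -0.18. Fzd5, a Wnt receptor, had 0.37 and -0.20, Dyrk2, a kinase, 0.27 and -0.33, and Pard3b, a cell polarity gene, 0.26 and -0.37.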

How the data were processed

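RNA-seq of 12 intestine libraries was deposited as 1 table. Per the submitters' processing notes the genome build was mm10. The aligner, counting tool, gene models and strand setting were not stated in the labels or the file header, and reads of genes that overlap or lie antisense to each other may therefore be mixed. The authors' deposited read counts are expected counts (8.90% to 9.33% not whole, tolerance 1e-06) and were rounded. The second set of values, also deposited, was read as FPKM, since over 5071 genes above 500 counts their ratio to the counts followed the library total within 0.149%.

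Counts were fitted with edgeR 4.0.16 (R 4.3.3): filterByExpr, TMM (factors 0.969 to 1.05), a quasi-likelihood model of all 12 libraries with 1 term per group, and Benjamini-Hochberg adjustment over 12329 genes. The SE was obtained by dividing the unshrunken log2FC by the square root of F, and CPM (counts per 1e6) are TMM-scaled. List ratios per library used log2(CPM + 0.5). DESeq2 1.42.0 and limma 3.58.1 served as alternatives; the fits were tested on simulated data. No 2 libraries of a group agreed within counting noise (chi-square of 8.28 to 35.4 per degree of freedom).

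Members and lists were chosen with earlier results of these data known. Named genes are up to 15 largest called rises and falls (at least 1 CPM, separate groups), the 10 smallest p per direction with under 5 calls, up to 4 members per list, set markers and 5 by interaction p; others are examples of their list. Promoters and coordinates are from RefSeq GRCm38.p6, matched by gene ID.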

Additional observations from a re-analysis of the deposited data

How the results depend on the processing

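The 20 genes called between B+A10 and AOS10 (18 higher, 2 lower) kept their direction under all 15 alternatives in which each was tested, but the number of calls moved widely. With groups that do not overlap, a kept direction was nearly fixed in advance and is no measure of stability. DESeq2 called 138 genes (114 higher, 24 lower; 19 of the 20), and edgeR without a filter on low counts called 40 (35 higher, 5 lower; all 20). The stricter filter of 5 CPM in 3 libraries called 20, of which 1 was lower, since Slpi was then not tested. DESeq2's size factors in edgeR called the same 20. A fit of only the 6 libraries compared called 0 (0 higher, 0 lower), with adjusted p of 0.0926 to 0.214 for the 20. limma on the deposited FPKM called 2 genes (1 higher, 1 lower) with a pseudocount of 1 and 7 (6 higher, 1 lower) with 0.1. Leaving out 1 library at a time called 0 to 61 genes (0 to 52 higher, 0 to 9 lower), and 18 of the 20 remained called without B+A10 replicate 2. The cause of these differences was not tested.

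Same-numbered B+A10 and AOS10 libraries had deviations from their group means that correlated at -0.102 to 0.214, and 1 of 3 pairs was above 0.1. Differently numbered libraries of these groups correlated at -0.268 to 0.185, and 2 of 6 pairs were above 0.1. Over all groups, 2 of 18 same-numbered and 12 of 36 differently numbered pairs were above 0.1. So few pairs cannot decide whether replicate numbers pair the libraries. With the replicate number as a block 3 genes were called (3 higher, 0 lower), and with the replicate block in the 6 libraries alone 27 (22 higher, 5 lower), 11 of them among the 20.

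Between B+A0 and AOS0, 449 calls became 1025 with DESeq2, 241 in the 6 libraries alone, 193 with the replicate block, 8 with the replicate block in the 6 libraries alone, and 21 to 1099 when 1 library was left out. The interaction had 0 calls, 17 with DESeq2, and 0 to 1 when 1 library was left out.

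Some uncalled genes near 0 changed sign. The log2 fold change of Cdkn1a became -0.0066 with the stricter filter, -0.019 with the replicate block, -0.029 with the replicate block in the 6 libraries alone, -0.0496 and -0.0505 with limma at pseudocounts of 1 and 0.1, and lay between -0.17 and 0.21 when 1 library was left out. That of Gzma became -0.13 with the replicate block in the 6 libraries alone, -0.15 and -0.16 with limma in the same order, and lay between -0.52 and 0.32 when 1 library was left out. Under the same omissions Jun lay between -0.16 and 0.37, Mki67 between -0.19 and 0.27, Ern2 between -0.15 and 0.0502 and Alpi between -0.0515 and 0.35. The median of the heat shock list lay between 0.66 and 0.94 over the alternatives, that of the ER list between 0.26 and 0.42, that of the tuft cell list between -1.14 and -0.32, that of the mast cell list between -2.18 and -0.55, that of the immediate early list between 0.097 and 0.56, that of the Paneth cell list between 0.12 and 0.61, that of the T and NK cell list between -0.68 and 0.10, and that of the HoxB list between -0.46 and 1.95.

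With 3 libraries per group and a wide spread within B+A10, a count of calls does not say how many genes differed. Genes under about 1 CPM rest on few counts per library, as for Slpi.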

Other observations

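Several genes had larger fold changes than most called genes and a wide spread within a group, and did not pass. St6galnac1, a sialyltransferase gene, measured 0.123, 0 and 2.87 CPM in AOS10 and 84.8, 14.0 and 1.66 CPM in B+A10 (adjusted p = 0.271). Its B+A10 libraries had the same order as those of Egr1 and Cyp1a1, with replicate 1 highest and replicate 3 lowest. How many of all genes share this order was not counted, and a link between these genes was not tested. Defa32, a defensin gene with near-identical copies, whose values are therefore uncertain, measured 10.4, 11.02 and 83.8 CPM in AOS10 and was at 0 in all 3 B+A10 libraries (adjusted p = 0.251). The MHC class II gene H2-Eb1 ranged from 13.8 to 43.2 CPM in AOS10 and measured 48.6, 183 and 83.8 CPM in B+A10 (adjusted p = 0.294), with replicate 2 the highest of B+A10. It stood apart from its list: of 8 tested MHC class II presentation genes, 4 lay above 0 and 4 below. The median log2 fold change of that list was -0.006, and none was called. St6galnac1, Defa32 and H2-Eb1 were chosen after their values were seen.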
